A study of Fukomys damarensis and Heterocephalus glaber and Cavia porcellus with 28 samples.

Results

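The 9 genes described here belong to glycogen turnover and were followed across the heart and liver of 4 rodent species: the glycogen phosphorylases Pygl, Pygm and Pygb, the glycogen synthases Gys1 and Gys2, the branching enzyme Gbe1, the UDP-glucose pyrophosphorylase Ugp2, the glycogen-targeting phosphatase subunit Ppp1r3c, and Epm2a, which encodes laforin. They are 9 of the 13928 rows of each tissue table, found by matching the mouse Ensembl gene identifier of a row to the symbol. Pygl was selected on its measured rank among the mole-rat to outgroup differences in heart, and Gys1 was selected on its measured rank in naked mole-rat liver. The values of Pygl in heart and of Gys1 in liver are therefore given as a description, with no test. The other 7 genes were listed for their function, with earlier results of these data known.

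The species were the naked mole-rat (Heterocephalus glaber) and the Damaraland mole-rat (Fukomys damarensis), and as outgroups the guinea pig (Cavia porcellus) and the mouse (Mus musculus). The hearts came from 3 naked and 5 Damaraland mole-rats, 3 guinea pigs and 3 mice. The livers came from 2 mice, 3 guinea pigs, 4 naked and 5 Damaraland mole-rats. Of the 18 animals, 10 gave both tissues. No treatment or genetic change is named for any group. Naked mole-rats were 13 to 17 months old, Damaraland mole-rats 36 to 48 months, guinea pigs 2.3 months and mice 2 months, so species and age cannot be told apart. The animals were male except for the Damaraland mole-rat of liver replicate 4. One Damaraland mole-rat is labelled 48 months old for its heart (replicate 1) and 36 months old for its liver (replicate 3). Feeding state and strain, which bear on glycogen genes, are not given in the sources used here.

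Glycogen is the branched glucose store of animal cells. Ugp2 makes UDP-glucose, glycogen synthase adds its glucose to a growing chain, and Gbe1 moves chain segments to form branches. Glycogen phosphorylase cuts glucose-1-phosphate from chain ends. The muscle (Pygm), brain (Pygb) and liver (Pygl) phosphorylases are separate genes, as are the muscle (Gys1) and liver (Gys2) synthases. Among mammals, heart muscle is known for the muscle and brain phosphorylases and for Gys1, and hepatocytes for Pygl and Gys2. Ppp1r3c, also called protein targeting to glycogen, brings protein phosphatase 1 to glycogen, where dephosphorylation activates the synthase and inactivates the phosphorylase. Laforin is a glycogen phosphatase whose loss causes Lafora disease.

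RNA abundance was measured by sequencing total RNA of frozen tissue after removal of ribosomal RNA. The deposited values lie on a log2-like scale whose floor, for genes without a read, is 5.3645 in heart and 4.2893 in liver. Doubling the reads from 1000 moved the value by 0.946 in heart and 0.973 in liver, and doubling from 10 moved it by 0.282 and 0.392, so differences of rare genes are compressed. "Difference" below means a difference of mean log2-like values with its standard error (SE). "Scaled reads" are the whole reads recovered from the values, divided by the library's size factor, and folds are ratios of mean scaled reads. A gene was called higher or lower where its adjusted p was under 0.05 and its difference was 1 or more in size. Levels are compared between species for 1 gene within 1 tissue, because the tissues were normalised separately and gene lengths were not used. Whether the values were corrected for the length of a gene in each species is not given in the sources used here. A species difference in that length could enter the differences and folds below, and the SE and p-values do not cover it. In bulk tissue, fewer cells of a type and less RNA per cell cannot be told apart.

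Libraries held 4089633 to 26985779 reads in heart and 11220505 to 21467939 in liver. Naked mole-rat heart replicate 3 was the shallowest and had 12.91% of genes at 0. The 5 heart muscle markers (Myh6, Actc1, Tnnt2, Ttn, Ryr2) summed to 411000–846000 scaled reads in naked mole-rat hearts, 1190000–1610000 in Damaraland hearts, 733000–841000 in guinea pig hearts and 1820000–2190000 in mouse hearts. The 5 hepatocyte markers in the tables (Alb, Ttr, Fgb, Serpinc1, Cps1) summed to between 893000 and 2920000 in the 14 livers. In the hearts the same hepatocyte markers summed to 11100–31400 in the naked mole-rat, 1810–5250 in the Damaraland mole-rat, 430–1990 in the guinea pig and 339–1270 in the mouse. Naked mole-rat hearts thus held more hepatocyte marker reads than any other heart, and this is set beside Pygl and Gys2 below.

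In heart, Pygl, the liver phosphorylase gene, had at least 5672 scaled reads in every mole-rat library and at most 166 in any outgroup library. Naked mole-rat hearts had 7299, 5672 and 7579 scaled reads of Pygl. Damaraland hearts had 76168, 29765, 27180, 10616 and 38809. Guinea pig hearts had 83, 153 and 69, and mouse hearts 74, 127 and 166. No mole-rat library overlapped an outgroup library, and every Damaraland library lay above every naked mole-rat library, while guinea pig and mouse overlapped. The mean was 67.5-fold higher in naked mole-rat than in guinea pig hearts and 56.0-fold higher than in mouse hearts, and 5.33-fold lower than in Damaraland hearts. On the log2-like scale the mole-rat mean exceeded the outgroup mean by 6.33.

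Damaraland hearts varied 7.17-fold among themselves in Pygl, from replicate 4 to replicate 1, whereas naked mole-rat hearts varied 1.34-fold. By the heart labels, the lowest and the highest Damaraland heart both came from animals 48 months old. The 2 animals labelled 36 months, replicates 2 and 5, lay between them. The highest, replicate 1, is the animal labelled 36 months old for its liver. By that label, hearts of 36 months (76168, 29765 and 38809 scaled reads) lay above those of 48 months (27180 and 10616). The part of age was not tested. In 4 genes, Gbe1, Ugp2, Ppp1r3c and Epm2a, replicates 4 and 5 were the lowest of the 5 Damaraland hearts.

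Markers of other cell types are given beside this. Per 1000 reads of the hepatocyte markers, naked mole-rat hearts had 232, 512 and 256 Pygl reads, against 3.06 to 6.16 in naked mole-rat livers. Damaraland hearts had 5520 to 28600 against 20.8 to 31.7 in Damaraland livers. Guinea pig hearts had 75.9, 76.9 and 160, and mouse hearts 218, 100 and 491, from at most 207 Pygl reads. Naked mole-rat and mouse hearts thus overlapped in this ratio. This ratio was computed after the values were seen. The 3 leukocyte markers in the tables (Ptprc, Cd68, Csf1r) summed to 207–496 in naked mole-rat, 540–905 in Damaraland, 508–736 in guinea pig and 830–1090 in mouse hearts. The part of these cell types in the Pygl values was not tested.

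Pygm, the muscle phosphorylase gene, was low in naked mole-rat hearts alone. Naked mole-rat hearts had 2834, 3049 and 3538 scaled reads. Damaraland hearts had 18478, 22215, 21674, 17809 and 22095, guinea pig hearts 11668, 8168 and 14806, and mouse hearts 21884, 22276 and 25326. All 3 naked mole-rat libraries lay below all 11 others. The naked mole-rat mean was 6.51-fold below Damaraland (difference -2.67, SE 0.19, limma adjusted p = 2.91e-09), 3.68-fold below guinea pig (-1.82, SE 0.21, adjusted p = 1.2e-06) and 7.38-fold below mouse (-2.85, SE 0.21, adjusted p = 4.34e-09). These calls held in all 14 fits that left out 1 library. Summed heart muscle markers were also low in naked mole-rat hearts, though they overlapped with guinea pig, and their part in the Pygm result was not tested.

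Among the other species, Pygm in guinea pig hearts was lower than in mouse hearts by 2.01-fold (difference -1.04, adjusted p = 3.94e-04), a call lost without guinea pig replicate 2 (the lowest) or mouse replicate 3 (the highest). Damaraland and mouse libraries overlapped (-0.18, SE 0.19, adjusted p = 0.397). The average of both mole-rats against both outgroups joined a low and a high species, and its difference of -0.999 (SE 0.14, adjusted p = 8.06e-06) lay just under the size threshold. It passed that threshold in 7 of the 14 fits without 1 library.

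Pygb, the brain phosphorylase gene, varied least between the species. Naked mole-rat hearts had 17043, 16480 and 18351 scaled reads, Damaraland hearts 16257, 21077, 17290, 17097 and 21675, guinea pig hearts 10933, 12419 and 12954, and mouse hearts 15094, 17717 and 17883. Guinea pig hearts lay below all other libraries, and the other species overlapped. No species pair was called. The widest was Damaraland against guinea pig (difference 0.62, SE 0.16, adjusted p = 0.00282).

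**Figure D1:**
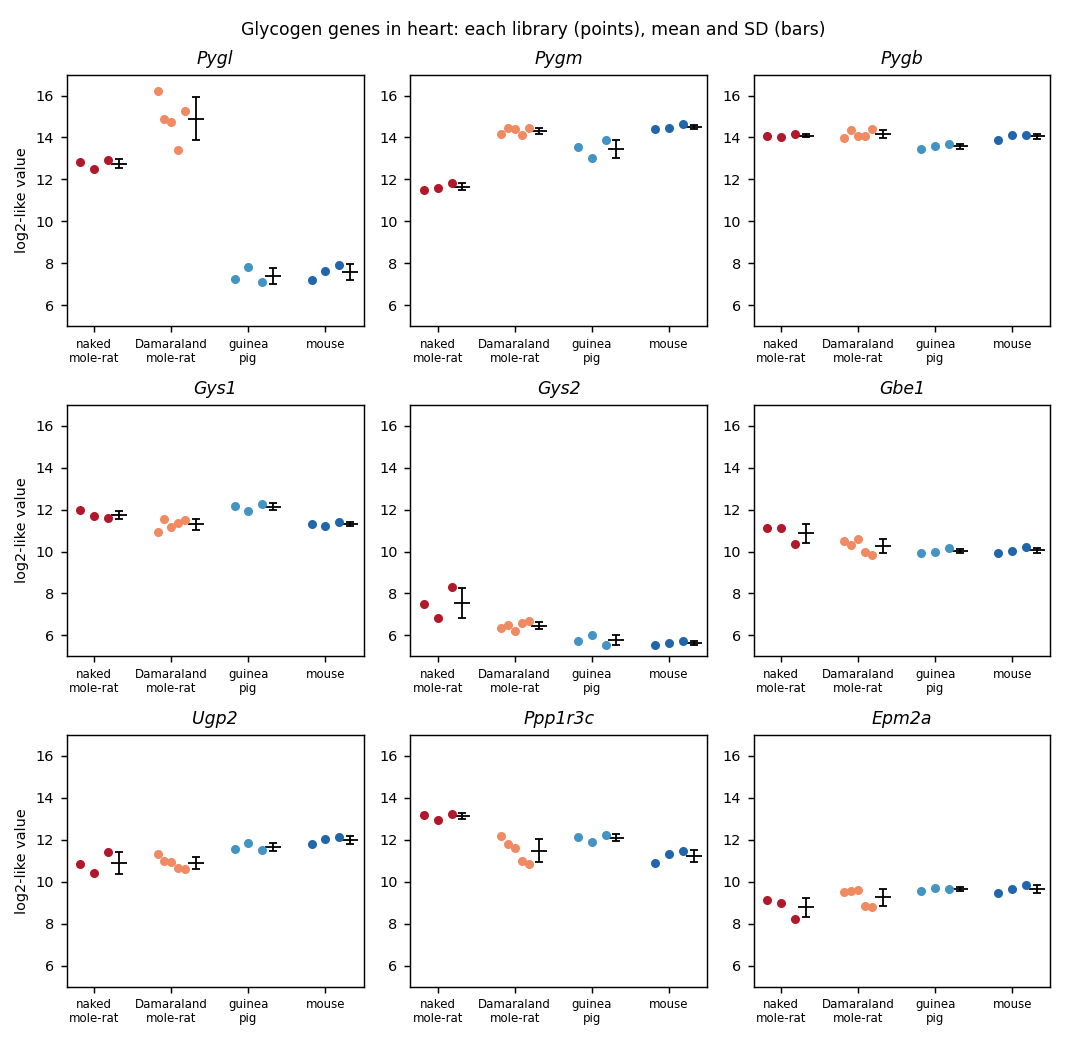
Deposited log2-like values of the 9 genes in 14 hearts by species. Points are libraries, and black bars give the mean and SD. Pygl lies far higher in both mole-rats than in both outgroups, and Pygm lies lower and Ppp1r3c and Gys2 higher in the naked mole-rat than in each other species.

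The makeup of phosphorylase reads differed accordingly between hearts. In naked mole-rat hearts Pygl made up 25.0% ± 2.3 (SD, n = 3) of the reads of the 3 phosphorylases, Pygm 11.5% ± 0.94 and Pygb 63.5% ± 1.7. In Damaraland hearts Pygl made up 44.2% ± 16 (n = 5), Pygm 29.1% ± 8.3 and Pygb 26.7% ± 8.2, with the Pygl share running from 23.3% to 68.7%. In guinea pig hearts Pygl made up 0.45% ± 0.25 (n = 3) beside Pygm at 48.0% ± 7.5 and Pygb at 51.5% ± 7.3. In mouse hearts Pygl made up 0.30% ± 0.092 (n = 3) beside Pygm at 57.7% ± 1.9 and Pygb at 42.0% ± 1.9. Thus outgroup hearts drew nearly all phosphorylase reads from the muscle and brain genes, and naked mole-rat hearts drew most from the brain gene. Shares are of reads, not divided by gene length, so they do not compare genes. A species difference in gene length could enter the shares as well.

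The 3 phosphorylases are close relatives, and how reads that fit more than 1 of them were assigned is not given in the sources used here. Outgroup hearts held at most 166 scaled reads of Pygl beside at least 8168 of Pygm and 10933 of Pygb. In liver, Damaraland libraries held at least 41060 of Pygl beside 33 to 62 of Pygm. High counts of one phosphorylase stood beside low counts of another in these outgroup hearts and Damaraland livers. In mole-rat hearts all 3 phosphorylases had at least 2834 scaled reads in every library. The part of shared reads in those counts was not tested.

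**Figure D2:**
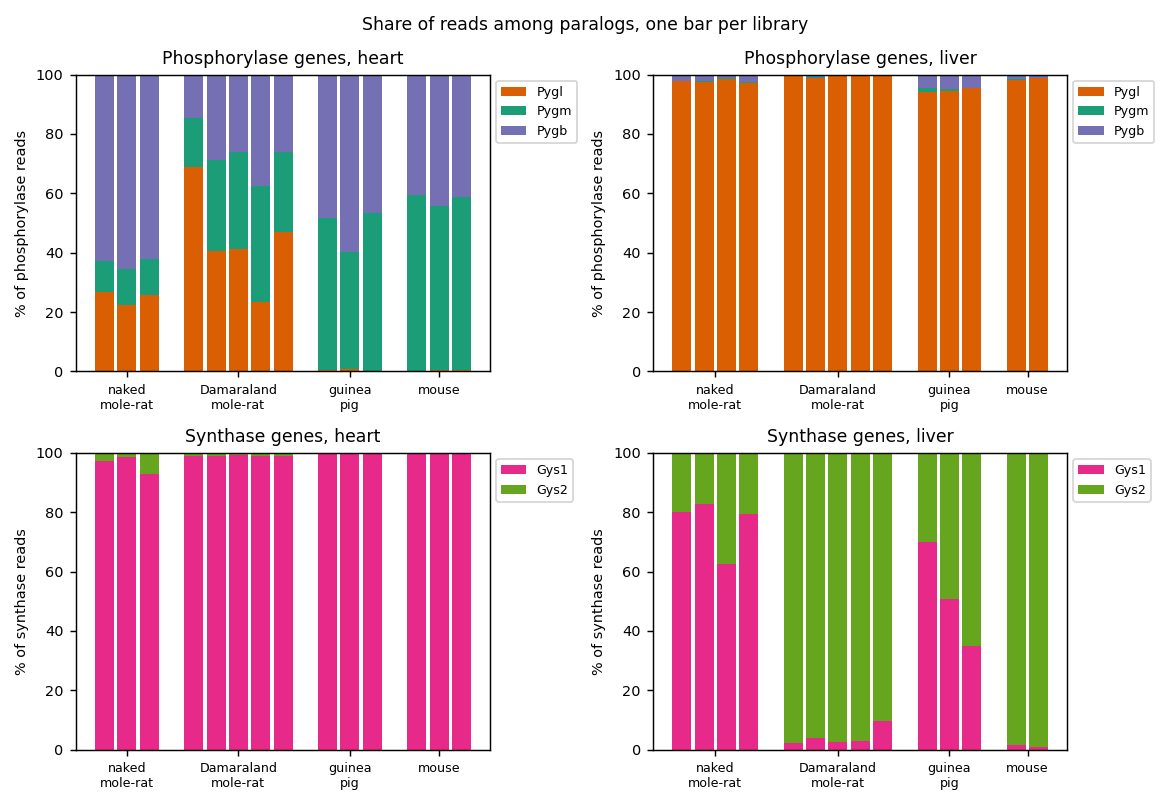
Share of each gene in the reads of the 3 phosphorylases and of the 2 synthases, in percent, 1 stacked bar per library, for heart and liver. The Pygl segment is 22.5% or more of phosphorylase reads in every mole-rat heart and at most 0.736% in the outgroup hearts, and the Gys1 segment is large in naked mole-rat and guinea pig livers.

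Of the synthases, Gys1 held at least 92.8% of the reads in every heart. The naked mole-rat libraries had 3941, 3196 and 3045 scaled reads, Damaraland hearts 1870, 2940, 2184, 2588 and 2853, guinea pig hearts 4571, 3848 and 4802, and mouse hearts 2454, 2330 and 2673. Guinea pig was highest, naked mole-rat next with overlapping libraries, and Damaraland and mouse overlapped below. No pair was called, the widest being Damaraland against guinea pig (difference -0.82, SE 0.17, adjusted p = 4.61e-04). The mole-rat average differed from the outgroups by -0.19 (SE 0.13, adjusted p = 0.181).

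Gys2, the liver synthase gene, was rare in heart but separated the species. Naked mole-rat hearts had 106, 47 and 237 scaled reads (125, 72 and 64 unscaled reads). Damaraland hearts had 20, 27, 15, 31 and 36. Guinea pig hearts had 4, 12 and 1 unscaled reads and mouse hearts 1, 2 and 3. Every naked mole-rat library exceeded every Damaraland library, and every Damaraland library exceeded every outgroup library. Gys2 passed the filter on low values only just, with a mean of 6.369 against 6.365, and through its naked mole-rat values. It was therefore tested over all 13928 rows with no filter. There it was higher in naked mole-rat than in guinea pig hearts (difference 1.76, SE 0.28, limma adjusted p = 0.000173) and mouse hearts (1.90, SE 0.28, adjusted p = 8.01e-05). It was also higher in naked mole-rat than in Damaraland hearts (1.07, SE 0.25, adjusted p = 0.00271), and in the mole-rat average (1.29, SE 0.19, adjusted p = 6.73e-05). These SE rest on a spread shared by the 4 species. The SD of Gys2 was 0.731 in naked mole-rat hearts, against 0.18 in Damaraland, 0.242 in guinea pig and 0.083 in mouse hearts. The p-values may therefore overstate the evidence.

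Leaving out the shallow naked mole-rat replicate 3, which was the highest, ended the call against Damaraland (0.70), and the other 3 calls held in all 14 unfiltered fits without 1 library, a setting chosen after seeing the data. Damaraland hearts exceeded guinea pig hearts by 0.69 (SE 0.25, adjusted p = 0.0329) and mouse hearts by 0.83 (SE 0.25, adjusted p = 0.0117), below the size threshold. The medians of the summed hepatocyte markers followed the same order of species. Per 1000 hepatocyte marker reads, Gys2 had 3.36, 4.22 and 8.01 reads in naked mole-rat hearts against 1.36 to 2.28 in naked mole-rat livers, and 5.24 to 16.3 in Damaraland hearts against 0.943 to 1.53 in Damaraland livers. In guinea pig and mouse hearts the ratio was 1.83 to 4.63 and 1.23 to 7.11, from at most 12 Gys2 reads. The part of hepatocyte RNA in the Gys2 values was not tested.

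Gbe1, which forms the branches, was not called in any heart comparison. There were 2157, 2135 and 1226 scaled reads in naked mole-rat hearts, and Damaraland hearts had 1359, 1205, 1473, 930 and 826, while guinea pig hearts had 895, 943 and 1051, and mouse hearts had 897, 969 and 1090. All naked mole-rat hearts lay above both outgroups, by 0.84 against guinea pig (SE 0.23, adjusted p = 0.00456) and 0.81 against mouse (SE 0.23, adjusted p = 0.0053). Without the shallow naked mole-rat replicate 3, the lowest of the group, both were called, and the differences reached 1.10 and 1.07.

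Ugp2, which supplies UDP-glucose, was lower in the hearts of both mole-rats. Naked mole-rat hearts had 1777, 1277 and 2674 scaled reads and Damaraland hearts 2501, 1935, 1869, 1550 and 1456. Guinea pig hearts had 2897, 3621 and 2878, and mouse hearts 3477, 4125 and 4450. All 8 mole-rat hearts lay below all 6 outgroup hearts. The calls were against mouse, for naked mole-rat (difference -1.10, SE 0.24, adjusted p = 7.61e-04; 2.10-fold) and Damaraland (-1.09, SE 0.22, adjusted p = 2.75e-04; 2.16-fold). The naked mole-rat call was lost without naked mole-rat replicate 2. The average difference of -0.92 (SE 0.16, adjusted p = 9.16e-05) missed the size threshold, and was called at -1.05 without naked mole-rat replicate 3.

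Ppp1r3c, which targets protein phosphatase 1 to glycogen, was highest in naked mole-rat hearts. They had 9352, 7893 and 9561 scaled reads, Damaraland hearts 4507, 3497, 3011, 1976 and 1776, guinea pig hearts 4388, 3776 and 4784, and mouse hearts 1818, 2461 and 2780. The 3 naked mole-rat hearts lay above all 11 others. The naked mole-rat mean was 3.03-fold above Damaraland (difference 1.65, SE 0.25, adjusted p = 2.59e-05), 2.07-fold above guinea pig (1.04, SE 0.28, adjusted p = 0.00415) and 3.80-fold above mouse (1.91, SE 0.28, adjusted p = 1.57e-05). The guinea pig call was lost without naked mole-rat replicate 3 or guinea pig replicate 2, where the difference ranged down to 0.95.

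Epm2a, the laforin gene, had 477, 421 and 226 scaled reads in naked mole-rat hearts, 644, 672, 688, 384 and 359 in Damaraland hearts, 671, 763 and 722 in guinea pig hearts, and 618, 735 and 830 in mouse hearts. Naked mole-rat hearts lay below both outgroups, by -0.86 against guinea pig (SE 0.25, adjusted p = 0.00711) and -0.87 against mouse (SE 0.25, adjusted p = 0.00605). No comparison was called, but both of these were without naked mole-rat replicate 1 (-1.04 and -1.05). Without the shallow naked mole-rat replicate 3, the lowest of the group, the differences shrank to -0.60 and -0.61. Damaraland hearts overlapped with all other species.

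Calls in heart were counted over the 7 tested genes other than Gys2. The average contrast called 0 of 7 with limma, against 23.4% of all genes tested. An unadjusted p under 0.05 was found for 6 of 7, beside 69.8% of all genes, and voom on the recovered reads called 1. Naked mole-rat against Damaraland called 2 (29.4% of all genes), naked mole-rat against guinea pig 2 (33.0%), and naked mole-rat against mouse 3 (38.2%). Damaraland against mouse called 1 (34.9%) and guinea pig against mouse 1 (32.1%). Damaraland against guinea pig called 0 of 7 (29.7% of all genes), with 5 of 7 at an unadjusted p under 0.05, beside 65.6% of all genes, and voom called 0. The median difference of the 7 genes in the average contrast was -0.19, beside -0.01 over all genes.

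In liver, Pygl was the main phosphorylase in all 4 species and was highest in the Damaraland mole-rat. Damaraland livers had 47968, 41060, 42604, 69371 and 45392 scaled reads. Naked mole-rat livers had 9056, 8938, 13465 and 9443, guinea pig livers 4911, 4903 and 5486, and mouse livers 10470 and 16261. All Damaraland livers lay above all others, naked mole-rat and mouse overlapped, and guinea pig was lowest. Damaraland exceeded naked mole-rat by 4.82-fold (naked minus Damaraland -2.26, SE 0.20, adjusted p = 2.09e-08), guinea pig by 9.66-fold (3.24, SE 0.21, adjusted p = 7.43e-10) and mouse by 3.69-fold (1.89, SE 0.25, adjusted p = 3.58e-06). These 3 calls held in all 14 fits without 1 library. Damaraland replicate 4, the female, had the highest value, and the other 4 livers were still above every liver of another species.

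Naked mole-rat livers exceeded guinea pig livers in Pygl by 0.98 (SE 0.22, adjusted p = 9.86e-04), just under the size threshold, and did not differ detectably from mouse (-0.37, SE 0.25, adjusted p = 0.208). Guinea pig livers were 2.62-fold below mouse livers (-1.35, SE 0.27, adjusted p = 3.46e-04). The average contrast called Pygl higher in mole-rats (1.43, SE 0.17, adjusted p = 7.46e-07), although naked mole-rat and mouse libraries overlapped. Pygl was chosen for its heart values, and 10 animals gave both tissues, so the liver result does not come from separate animals.

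Pygm and Pygb were rare in liver. Pygm ran from 16 to 33 scaled reads in naked mole-rat, 33 to 62 in Damaraland, 18 to 80 in guinea pig and 30 to 37 in mouse livers, and Pygb from 172 to 228, 190 to 372, 233 to 253 and 149 to 190. Neither was called in any comparison. The average differences were -0.03 for Pygm (SE 0.19, adjusted p = 0.901) and 0.05 for Pygb (SE 0.14, adjusted p = 0.789), and the sign of both changed when single libraries were left out, and that of Pygm also with array weights or a replicate block. Pygl made up 97.8% ± 0.54 (SD, n = 4) of phosphorylase reads in naked mole-rat livers, 99.4% ± 0.27 (n = 5) in Damaraland, 94.7% ± 0.67 (n = 3) in guinea pig and 98.5% ± 0.29 (n = 2) in mouse livers.

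Gys1, the muscle synthase gene, was abundant in the livers of naked mole-rats and guinea pigs and rare in those of Damaraland mole-rats and mice. Naked mole-rat livers had 16905, 19152, 7683 and 13755 scaled reads. Damaraland livers had 63, 75, 62, 63 and 198, guinea pig livers 4035, 2379 and 1502, and mouse livers 38 and 34. No species overlapped with another, and the order was naked mole-rat, guinea pig, Damaraland, mouse. The naked mole-rat mean was 156-fold above Damaraland, 5.45-fold above guinea pig and 400-fold above mouse. The guinea pig mean was 28.6-fold above Damaraland and 73.5-fold above mouse. The pattern thus did not follow the split of mole-rats and outgroups, and the average contrast of 1.62 set a high and a low species together on each side.

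**Figure D3:**
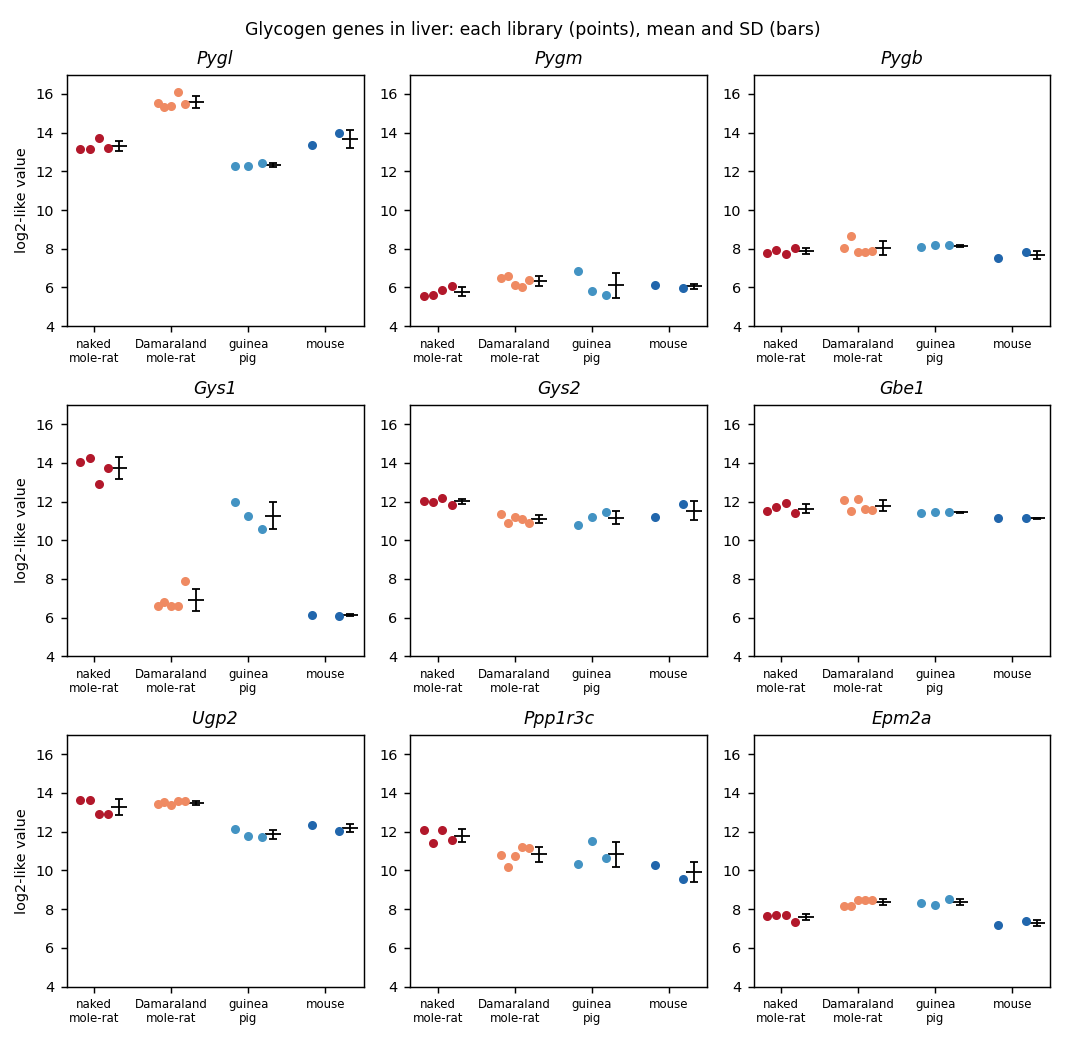
Deposited log2-like values of the 9 genes in 14 livers by species. Points are libraries, and black bars give the mean and SD. Gys1 is high in naked mole-rat and guinea pig and low in Damaraland and mouse, Pygl is highest in Damaraland, and Ugp2 lies higher in both mole-rats than in both outgroups.

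Gys2, the liver synthase gene, varied far less. Naked mole-rat livers had 4205, 3961, 4585 and 3563 scaled reads, Damaraland livers 2582, 1859, 2346, 2150 and 1862, guinea pig livers 1734, 2303 and 2784, and mouse livers 2271 and 3682. Naked mole-rat libraries lay above all Damaraland and guinea pig libraries, by 0.91 (SE 0.17, adjusted p = 1.85e-04) and 0.85 (SE 0.20, adjusted p = 0.00112), both under the size threshold, and overlapped with mouse. Gys1 made up 76.2% ± 9.2 (SD, n = 4) of the reads of both synthases in naked mole-rat livers and 51.9% ± 17 (n = 3) in guinea pig livers. It made up 4.27% ± 3.0 (n = 5) in Damaraland livers and 1.28% ± 0.51 (n = 2) in mouse livers. In naked mole-rat livers Gys1 reads therefore stood beside a Gys2 level that was not lower than in the other species.

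Markers of other cells that can carry Gys1 were summed in the livers. The 8 skeletal muscle markers gave 2100–7150 scaled reads in naked mole-rat, 522–1010 in Damaraland, 64.4–408 in guinea pig and 118–324 in mouse livers. In the naked mole-rat most of this came from Myom1, at 1800–6990. The other 7 (Acta1, Myh1, Myh2, Myh4, Tnnt3, Ckm and Myl1), separated after the values were seen, summed to 144–299 there, 277–499 in Damaraland, 41.3–383 in guinea pig and 84.8–302 in mouse livers. The 5 heart muscle markers summed to 758–1370, 1600–3220, 603–3160 and 1770–3110 in the same order, lowest at the median in the naked mole-rat. The 4 bile duct markers in the tables (Epcam, Krt7, Krt19, Spp1) summed to 2140–2980 in naked mole-rat, 835–2050 in guinea pig, 119–424 in Damaraland and 372–663 in mouse livers. Bile duct markers were thus highest in the 2 species high in Gys1. Their median was lower in Damaraland than in mouse livers (240 and 517), unlike Gys1. Fibroblast markers also had their highest medians in guinea pig (5770) and naked mole-rat livers (3560), against 1970 in Damaraland and 2240 in mouse livers. The part of muscle, bile duct and fibroblast cells in the Gys1 values was not tested.

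Gbe1 was not called in any liver comparison. It ran from 2674 to 3800 scaled reads in naked mole-rat, 2925 to 4395 in Damaraland, 2697 to 2793 in guinea pig and 2193 to 2233 in mouse livers. The mouse was lowest, by 0.64 against Damaraland (SE 0.20, adjusted p = 0.00908).

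Ugp2 was higher in the livers of both mole-rats, in contrast with its lower level in their hearts. Naked mole-rat livers had 12880, 12840, 7645 and 7794 scaled reads, Damaraland livers 11059, 11697, 10436, 12126 and 12348, guinea pig livers 4417, 3417 and 3323, and mouse livers 5145 and 4219. All 9 mole-rat livers lay above all 5 outgroup livers. The average difference was 1.36 (SE 0.15, adjusted p = 5.39e-07; 2.60-fold). All 4 pairs of a mole-rat and an outgroup were called, from 1.09 for naked mole-rat against mouse (SE 0.23, adjusted p = 6.09e-04) to 1.63 for Damaraland against guinea pig (SE 0.20, adjusted p = 1.42e-06). Naked mole-rat against mouse was no longer called without naked mole-rat replicate 1, naked mole-rat replicate 2 or mouse replicate 2. The mole-rats did not differ detectably from each other (-0.21, SE 0.18, adjusted p = 0.323).

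Ppp1r3c was again highest in the naked mole-rat on average. Naked mole-rat livers had 4271, 2729, 4335 and 3005 scaled reads, Damaraland livers 1747, 1131, 1706, 2300 and 2264, guinea pig livers 1233, 2924 and 1550, and mouse livers 1199 and 704. One guinea pig liver, replicate 2, overlapped with the naked mole-rat. The call was against mouse (difference 1.89, SE 0.33, adjusted p = 9.34e-05; 3.77-fold). The differences from Damaraland (0.97, SE 0.26, adjusted p = 0.00317) and guinea pig (0.97, SE 0.29, adjusted p = 0.00801), and the average of 0.94 (SE 0.22, adjusted p = 0.00102), lay just under the size threshold. The average was called in 4 of 14 fits without 1 library, at up to 1.13: those without naked mole-rat, Damaraland or guinea pig replicate 2 or mouse replicate 1.

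Epm2a paired the species differently. Damaraland livers had 252, 251, 315, 315 and 319 scaled reads and guinea pig livers 279, 263 and 330, against 160, 167, 171 and 124 in naked mole-rat and 110 and 133 in mouse livers. The first pair of species lay above the second without overlap. Damaraland and guinea pig were each called above mouse (1.05, SE 0.17, adjusted p = 3.87e-05, and 1.06, SE 0.19, adjusted p = 1.11e-04). Both calls were lost without mouse replicate 1, and the guinea pig call also without guinea pig replicate 3. Naked mole-rat lay below Damaraland by 0.77 (naked minus Damaraland -0.77, SE 0.14, adjusted p = 8.92e-05), under the size threshold.

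Of the 8 genes tested in liver, the average contrast called 2, both higher (Pygl and Ugp2), or 25.0%, against 28.1% of all genes tested. Naked mole-rat against Damaraland called 1 (34.2% of all genes), naked mole-rat against guinea pig 1 (37.8%), and naked mole-rat against mouse 2 (41.2%). Damaraland against guinea pig called 2 (36.2%), Damaraland against mouse 3 (39.2%), and guinea pig against mouse 2 (37.2%). The called share of these genes was below that of all genes in each liver comparison, by little in Damaraland against mouse (37.5% beside 39.2%). With 8 genes and comparisons that share libraries, no difference from all genes is read from this. The median difference of the 8 genes in the average contrast was 0.31, beside 0.02 over all genes.

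**Figure D4:**
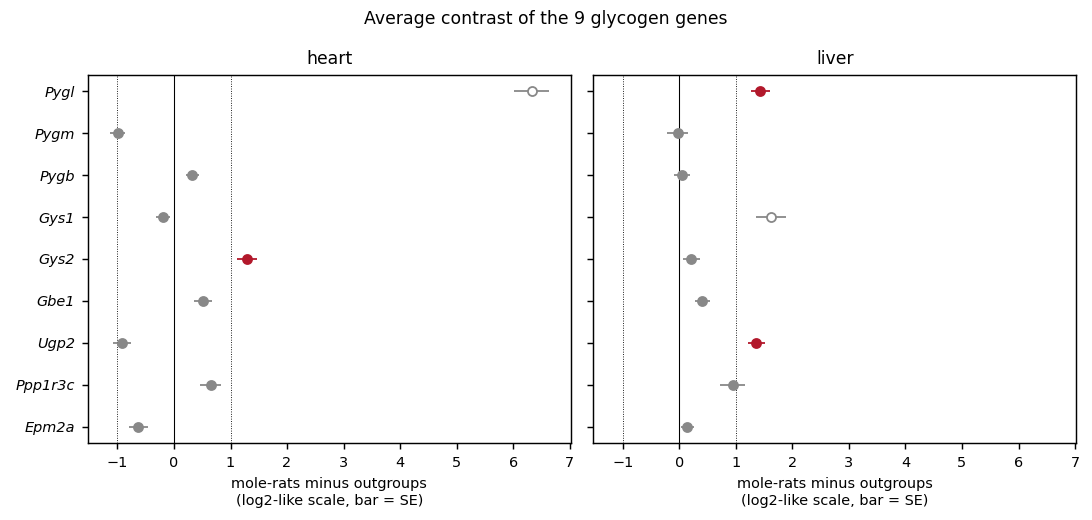
Mean log2-like value of the mole-rats minus that of the outgroups for the 9 genes in heart and liver. Bars give the SE, dotted lines mark a difference of 1 in either direction, red points were called higher, grey points were not called, and open points were not tested. Ugp2 lies at -0.92 in heart and 1.36 in liver, and the open points are Pygl in heart and Gys1 in liver. The red Gys2 point in heart is from the fit with the filter, which Gys2 passed only through its naked mole-rat values.

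The rest of the pathway was read from 32 further genes in 4 lists, of which 27 are in the tables. In heart, 3 of 27 were called higher in the mole-rats and 5 lower in the average contrast, or 29.6% beside 23.4% of all genes. In liver 26 were tested, since Ppp1r3a fell under the filter, and 3 were higher and 4 lower, or 26.9% beside 28.1%. The median difference over the lists was -0.47 in heart and -0.27 in liver.

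Among the 9 breakdown genes, 2 (22.2%) were called in mole-rat hearts, both higher, beside 23.4% of all genes, and 3 (33.3%) in livers, 2 higher and 1 lower, beside 28.1%. Pgm2 (ENSMUSG00000029171), of the phosphoglucomutase family, was higher in heart (difference 2.08, SE 0.10, adjusted p = 3.74e-11) with means of 697 ± 61.8 scaled reads in naked mole-rat (SD, n = 3), 671 ± 58.1 in Damaraland (n = 5), 164 ± 28.5 in guinea pig (n = 3) and 67.7 ± 12.1 in mouse (n = 3). It was also higher in liver (2.81, SE 0.14, adjusted p = 2.55e-11), and no mole-rat library overlapped an outgroup library in either tissue. Phkg2, a catalytic subunit of phosphorylase kinase, was higher in heart (1.38, SE 0.16, adjusted p = 1.27e-06). Pgm1 (ENSMUSG00000025791), which interconverts glucose-1-phosphate and glucose-6-phosphate, was higher in mole-rat livers (1.49, SE 0.15, adjusted p = 1.52e-07), with means of 17400 ± 2520 in naked mole-rat, 9090 ± 1990 in Damaraland, 4490 ± 717 in guinea pig and 4360 ± 467 in mouse. Pgm2l1, related to both, was the 1 breakdown gene lower in liver (-1.76, SE 0.18, adjusted p = 2e-07).

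Other breakdown genes set 1 species apart from each of the other species. Phkg1, the muscle catalytic subunit of phosphorylase kinase, was lower in Damaraland hearts (differences -2.04 to -2.49), at 65.1 ± 11.2 scaled reads (SD, n = 5) against 495 ± 63.8 in guinea pig, 482 ± 110 in mouse and 679 ± 95 in naked mole-rat hearts. The Damaraland hearts thus combined the highest Pygl with the lowest Phkg1. In mouse hearts Gaa, the lysosomal glucosidase, was higher by 1.65 to 2.72 and Pgm2l1 by 1.13 to 1.45. In mouse livers Pgm2 was lower (differences -1.06 to -3.41), and Pgm2l1 was higher by 1.51 to 2.61.

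Among the 7 priming and phosphatase genes tested in heart, 3 (42.9%) were called, 1 higher and 2 lower, beside 23.4% of all genes. Ppp1r3f, a targeting subunit like Ppp1r3c, was higher in mole-rat hearts (1.17, SE 0.12, adjusted p = 2.68e-07). Ppp1ca, a catalytic subunit of protein phosphatase 1, was lower (-1.15, SE 0.18, adjusted p = 2.11e-05). Ppp1r3b, the targeting subunit known from liver, was lower on average (-1.71, SE 0.15, adjusted p = 3.32e-08) through the guinea pig, whose hearts had 6760 ± 1110 scaled reads (SD, n = 3) and exceeded each other species by 2.46 to 4.29. Its means were 1160 ± 174 in naked mole-rat, 278 ± 85.4 in Damaraland and 605 ± 115 in mouse hearts, so the naked mole-rat did not lie below the mouse. Ppp1cc, another catalytic subunit, was lower in naked mole-rat hearts than in each other species (differences -1.18 to -1.87). In liver limma called 0 of 6 in the average contrast, beside 28.1% of all genes. An unadjusted p under 0.05 was found for 3 of 6, beside 70.6% of all genes, and voom called 1. Ppp1r3b was lower in naked mole-rat livers than in each other species (differences -1.03 to -1.69).

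Of the quality control genes, 1 of 3 is in the tables. Gabarapl1, an autophagy gene linked to the delivery of glycogen to lysosomes, was lower in mole-rats in heart (-1.96, SE 0.13, adjusted p = 1.82e-09) and liver (-2.81, SE 0.16, adjusted p = 7.62e-11). No mole-rat library overlapped an outgroup library in either tissue. Heart means were 227 ± 58.3 scaled reads in naked mole-rat and 282 ± 65.8 in Damaraland, against 1380 ± 178 in guinea pig and 1030 ± 138 in mouse. Gabarapl1 has close relatives, and how shared reads were assigned is not given in the sources used here.

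Among the 10 kinase genes, 2 (20.0%) were called in mole-rat hearts, both lower, beside 23.4% of all genes, and 3 (30.0%) in livers, 1 higher and 2 lower, beside 28.1%. The heart genes both encode beta subunits of AMP-activated protein kinase, which bind glycogen. Prkab2 was lower (-2.55, SE 0.11, adjusted p = 1.44e-11), with the guinea pig higher than each other species by 2.76 to 4.52 and Damaraland lower (-1.18 to -4.52). Prkab1 was lower on average (-1.08, SE 0.11, adjusted p = 2.49e-07), with naked mole-rat hearts lower than each other species (-1.28 to -2.21). Damaraland hearts did not lie below guinea pig hearts in mean Prkab1 (235 ± 17.9 and 225 ± 48.3 scaled reads). In liver Prkab2 was higher on average (1.55, SE 0.12, adjusted p = 4.05e-09), with naked mole-rat higher than each other species by 1.18 to 3.80 and mouse lower (-1.93 to -3.80). The Damaraland liver mean of Prkab2 was below that of guinea pig (239 ± 19.1 and 411 ± 33.1 scaled reads). The Prkab2 direction thus differed between the tissues, and the difference between tissues was not tested.

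Lower on average in mole-rat livers were Prkaa2, a catalytic subunit of the same kinase (-1.53, SE 0.13, adjusted p = 1.47e-08), and Prkacb, a catalytic subunit of protein kinase A (-1.13, SE 0.17, adjusted p = 1.14e-05). Both were higher in mouse livers than in each other species, by 2.67 to 4.55 and 1.49 to 2.56. Against guinea pig, naked mole-rat livers were called higher in Prkaa2 (means of 359 ± 15.6 and 107 ± 21.7 scaled reads). Their Prkacb mean was also above that of guinea pig livers (659 ± 201 and 516 ± 123). Gsk3a, a kinase that phosphorylates glycogen synthase, was also higher in mouse livers, by 1.53 to 2.13, and its relative Gsk3b in mouse hearts, by 1.53 to 2.27. Prkacb was lower in Damaraland hearts (-1.05 to -1.61), and Prkaca was higher in Damaraland livers by 1.19 to 1.79. Guinea pig livers had higher Prkaa1 (by 1.22 to 2.20) and Prkab1 (by 1.90 to 2.90) and lower Prkag2 (-2.03 to -2.49) than each other species.

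**Figure D5:**
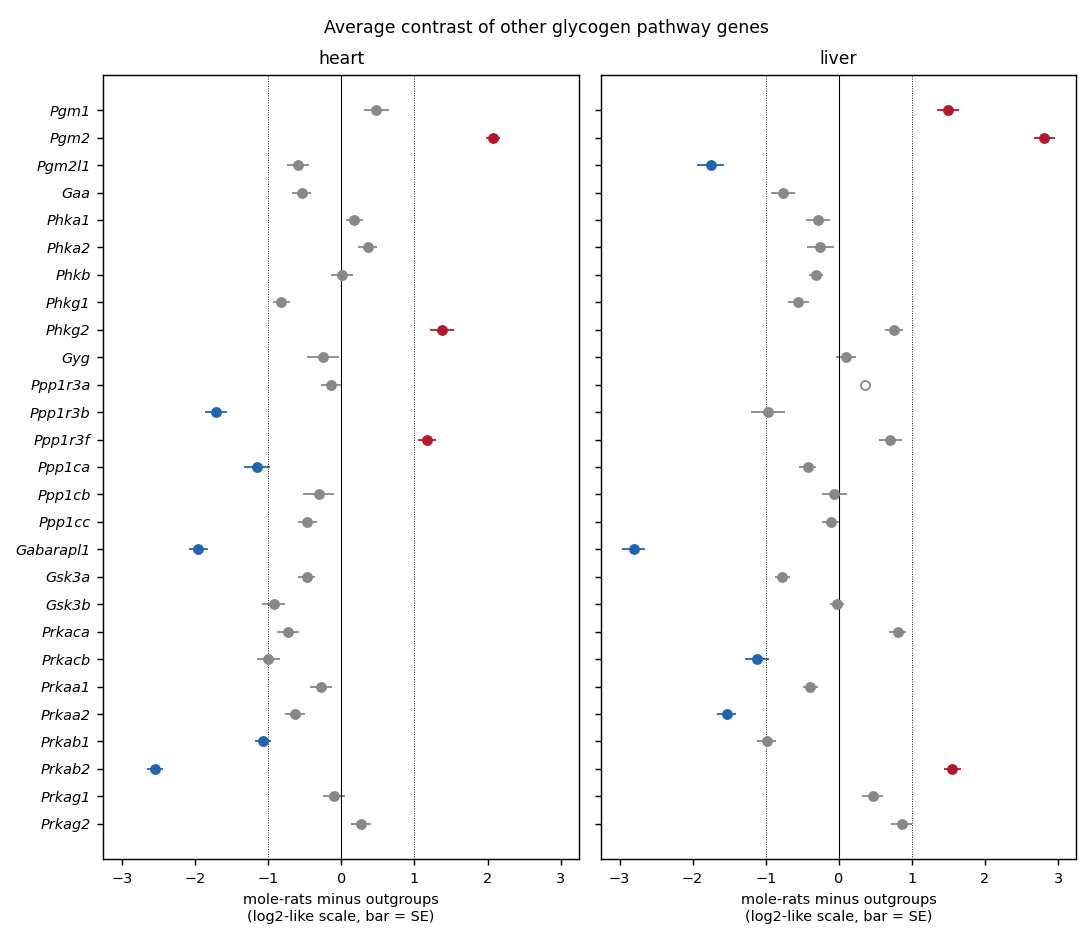
Mean log2-like value of the mole-rats minus that of the outgroups for the further glycogen pathway genes in heart and liver. Bars give the SE, dotted lines mark a difference of 1 in either direction, and red, blue and grey points were called higher, called lower or not called, with Ppp1r3a in liver (open) not tested. Pgm2 is called higher and Gabarapl1 lower in both tissues, and Prkab2 is called lower in heart and higher in liver.

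Over the 14 hearts, the genes whose values were most like those of Pygl were Lgals3 (galectin-3; Pearson r = 0.982), Gtf2b (a general transcription factor; r = 0.978) and Trim46 (r = 0.977). Lgals3 had means of 8.13 in naked mole-rat, 9.04 in Damaraland, 6.68 in guinea pig and 6.51 in mouse hearts on the log2-like scale. Over the 14 livers, the genes most like Gys1 were Hebp2 (r = 0.993), Lrrc55 (r = 0.992) and Cst6 (a cystatin protease inhibitor; r = 0.988). Cst6 had means of 10.05, 5.22, 7.84 and 4.29 in the same order of species, the last of these at the floor of the scale. The libraries fall into 4 species, so these coefficients mostly restate the order of the species means.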

How the data were processed

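Expression was measured in 28 libraries, 14 of heart and 14 of liver. The deposited values are on a log2-like scale, 1 table per tissue. The submitters' processing notes name cutadapt, Salmon 013.1, DESeq2 and GRCm38 without stating their roles. How genes were matched between species, and the index used for each, is not given in the sources used here. The authors' tables hold 26 further columns of other series, which were not used. Of 13928 row identifiers, 13921 matched a symbol.

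Inverting the transform gave whole reads in every library (largest deviation 1.42e-07 reads), and these gave the depths, scaled reads and shares. The deposited unit is not a count, so the main test was limma 3.58.1 (R 4.3.3) on the log2-like values, with all 4 species in 1 fit per tissue, moderated variances that followed the mean, and p-values adjusted by Benjamini-Hochberg across every gene that passed the filter (10667 in heart, 10887 in liver). Genes with a mean under the floor plus 1 were left out, which kept all 9 genes in both tissues. Gys2 in heart, at the edge of the filter, was tested with no filter. The scripts were tested on simulated data. P-values weigh a difference between species against the spread between animals within species, pooled over the 4 species and moderated across genes. They do not follow the wider spread of a single species.

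The genes and lists were chosen with earlier results of these data known. Named were all 9 genes, the pathway genes called in an average contrast or apart in 1 species against each other species, and the 3 genes most correlated with Pygl in heart and Gys1 in liver. Alternatives covered the size threshold, filter, scaling, variance model, voom, a replicate block and the omission of single libraries. One result is not reported here. Shares per coding length were not run, as lengths were not used here. Markers of skeletal muscle, bile duct, neural and glial cells, leukocytes, fat cells, erythroid cells and fibroblasts were summed beside those of heart muscle and hepatocytes.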

Additional observations from a re-analysis of the deposited data

Results flagged for a closer look

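One library lay far from its group in 3 of 27 combinations of gene and group with 4 or 5 libraries, where chance gives about 1 in 20. In naked mole-rat liver replicate 3, Pygl was at 13.721 on the log2-like scale, against 13.132 to 13.211 in the other 3. The same library was the lowest of its group in Gys1 and Ugp2. In Damaraland liver replicate 2, Pygb was at 8.679, against 7.831 to 8.043. In Damaraland liver replicate 5, Gys1 was at 7.877, against 6.606 to 6.795.

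Ugp2 moved in opposite directions in the 2 tissues. Every mole-rat heart lay below every outgroup heart (difference -0.918), and every mole-rat liver lay above every outgroup liver (1.361). The difference between tissues was not tested, because the tables were normalised separately.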

How the results depend on the processing

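Across the 8 tested genes, with Gys2 in heart, 1 was called in the heart average contrast, 12 over the 6 heart species pairs, 2 in the liver average and 11 over the liver pairs. The heart counts here include Gys2 from the fit with the filter, which it passed only through its naked mole-rat values. Without Gys2 the heart average count was 0 of 7. Without a size threshold the counts were 7, 30, 4 and 23. A limma unadjusted p under 0.05 was found for 69.8% of all genes in the heart average and 70.6% in the liver average. In the species pairs it was found for 63.6% to 69.5% in heart and 63.0% to 70.4% in liver. Shares of all genes at the alternative settings are not given, so no difference from all genes is read from these counts. Tested against a difference of 1, the counts were 0, 6, 0 and 5. Pygl and Ugp2 in liver then had adjusted p = 0.0578 and 0.0914, and Gys2 in heart, in the fit with the filter, 0.379. The heart average count was 0 with a filter at the table median, where Gys2 was not tested, and 2 with array weights or voom, which added Pygm (-1.01 in each). Leaving out 1 library gave 0 to 2, and the liver average 2 to 3. The heart average count was 0 without naked mole-rat heart replicate 1 or 2 or Damaraland heart replicate 4. In those fits Gys2 fell under the filter and was not tested, so no call was lost by a test. Gys2 was not tested in 6 of the 14 fits and was called in the other 8, and with no filter in all 14. The count was 2 without naked mole-rat replicate 3, Damaraland replicate 3, guinea pig replicate 2 or mouse replicate 1 or 2. The heart pairs ran from 8 to 13, lowest without naked mole-rat replicate 2. In liver, Pygm changed sign with array weights (0.042) and a replicate block (0.012), and over the fits without 1 library it ran from -0.15 to 0.16 and Pygb from -0.033 to 0.119. Without a mouse liver, the 1 left was assumed to vary like the other groups. Pygl in heart was 7.10 with voom. Same-numbered libraries did not deviate together (median correlation -0.018 over 18 heart pairs and 0.026 over 16 liver pairs). The replicate block gave 1, 11, 2 and 10 calls, and within a tissue no number marks a shared animal. Of the values of single genes and shares under alternatives, 455 kept direction and side of the threshold, 22 passed it newly, 3 no longer passed it, 9 changed sign and 1 moved beyond the spread. Of the counts, 77 stayed within 1.5 times and 19 did not.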

Other observations

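Further marker sums differed between species by tissue. In heart, skeletal muscle markers summed to 44500–56500 scaled reads in naked mole-rat, 136000–224000 in Damaraland, 112000–120000 in guinea pig and 78100–95700 in mouse, bile duct markers to 73.6–167, 119–401, 809–2500 and 16.0–72.3, and neural and glial markers to 444–752, 263–451, 583–914 and 73.0–113. Of the skeletal muscle markers, Myom1 alone had 22700–26900, 25100–37200, 39400–48200 and 32600–41500. Whether the reads of these markers came from heart muscle or skeletal muscle was not tested. Fat cell markers summed to 922–1590, 3120–4700, 1480–3480 and 5390–6540 in the same order, fibroblast markers (2 of 3 in the tables) to 6720–14900, 6980–28000, 32800–90100 and 5410–6880, and the 1 erythroid marker in the tables, Alas2, to 60.9–111, 31.8–161, 46.0–1040 and 298–1340. In liver, neural and glial markers summed to 356–406, 300–405, 92.9–120 and 27.5–53.1, leukocyte markers to 809–1780, 1060–1890, 1550–2610 and 1260–1280, and fat cell markers to 124–211, 752–3640, 20.7–62.9 and 168–171. Liver fibroblast markers summed to 1680–4510, 1130–3530, 5760–8610 and 2190–2300, and Alas2 to 62.2–126, 35.8–108, 61.5–192 and 1560–1950. Markers at 0 in every library of a group were Tnnt3 in guinea pig hearts and mouse livers, Myl1 in Damaraland livers, and Gfap and Syn1 in guinea pig livers.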
